A study of Mus musculus with 6 samples.

Results

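The control embryonic kidney at E15.5 was described from 3 arrays, 1 for each of 3 litters, as an order of genes from bright to dim. The detection p of a probe sets its signal against negative control beads of the same array, and members had a p under 0.05 on all 3 control arrays. This held for 15691 of 45277 probes (34.7%) and for 9300 of 19057 named genes (48.8%). Members were ordered by their mean normalized log2 signal, with each gene placed by its brightest detected probe.

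For each array the kidneys of 2 littermates were pooled and their RNA was hybridised to an Illumina MouseWG-6 v2.0 chip. The control embryos were Cre-negative littermates of FoxD1GC;Dicer fl/fl embryos and so lacked the eGFP-Cre allele of the Foxd1 locus. The parental lines differed in strain, 129-Elite for FoxD1GC and C57BL/6J for Dicer fl/fl, so the embryos were of mixed background, and the Dicer alleles of the controls are not given further. The 3 FoxD1GC;Dicer fl/fl arrays of the series entered only the joint normalization. With 1 group of 3 arrays no test was made, and all errors are SDs over 3 litters.

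The embryonic kidney grows by reciprocal signalling. The ureteric bud, an epithelial tree that becomes the collecting ducts, branches in response to Gdnf from the cap of nephron progenitors around its tips. Progenitors in turn are induced by Wnt ligands of the bud to form epithelial vesicles, which pattern into glomerulus, proximal tubule, loop of Henle and distal tubule. The Foxd1-expressing stroma surrounds both and gives rise to mesangium, pericytes and smooth muscle. At this age new nephrons are still being added at the rim while the oldest ones near the centre begin to mature.

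The 3 control arrays had similar median signals and differed in how many probes were detected. Probes with a detection p under 0.05 numbered 20224 in litter 1, 16981 in litter 2 and 18943 in litter 3, and the median bead signal of all probes was 116.4, 122.8 and 119.0. Over the 15691 member probes Pearson's r between arrays was 0.977 for litters 1 and 2, 0.981 for litters 1 and 3 and 0.985 for litters 2 and 3, given as a description of probes that share arrays. A further 2384 probes passed on 2 of the 3 arrays and 4307 on 1. The 10 named probes just inside the threshold, among them probes of Nkx6-1 and Insl3, had mean log2 signals of 5.18 to 5.59. The 10 just outside, among them probes of Vrk2 and Prkca, had 5.22 to 5.82, so the 2 sides overlapped.

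Member genes spanned mean log2 signals of 5.10 to 14.48, with a median of 7.92 and quartiles of 6.66 and 9.27. The median SD over litters was 0.173 over all member genes. Without litter 1 it was 0.107, an SD over 2 arrays and so not directly comparable. The 2.26% of genes at a log2 of 12 or more had a median SD over litters of 0.083, and their position in the order moved by a median of 16 places between arrays. The 12.5% below 6 had a median SD of 0.251 and moved by 647 places. Of 9299 neighbouring pairs in the order, 2 were farther apart than the larger SD of the pair, so bands and percentiles are given here and single places are not compared. A percentile is the share of member genes at or below a gene.

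A second limit on the order was the probe. For 3132 genes with at least 2 detected probes, the brightest and the dimmest differed by a median of 1.35 log2, against a median SD over litters of 0.17 for a gene. For Eef1a1 the detected probes ran from 6.90 to 14.25, for Col3a1 from 5.67 to 12.22 and for Hbb-bs from 14.13 to 14.34. A low place therefore does not show a scarce transcript, and a gene whose probes were not detected is not shown to be absent.

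The brightest genes were those of protein synthesis. Cytosolic ribosomal protein genes made up 15 of the 30 brightest and 35 of the 100 brightest genes. Replication-dependent H2a histone genes, which package newly made DNA, made up 4 and 8, genes of the mitochondrial genome 3 and 5, and globins 3 and 3. Translation factors gave 6 of the 100 brightest, nuclear subunits of oxidative phosphorylation 7, and cytoskeletal genes 5. On each array taken alone, 91 genes were among the 100 brightest, and 109 were on at least 1 array.

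Rps12, of the small ribosomal subunit, was the brightest gene on every array, with bead signals of 27207 in litter 1, 20939 in litter 2 and 22565 in litter 3. Quantile normalization gives the brightest probe of each array the same value, so its normalized 14.48 had no spread by construction. Hbb-bs, an adult beta globin of red blood cells, followed with bead signals of 23948, 20221 and 21548. H2ac10, an H2a histone, had 22026, 19430 and 22116. The ribosomal stalk protein gene Rplp1 had 25336, 19332 and 18978, and the translation elongation factor gene Eef1a1 had 22831, 19276 and 19698. Before normalization litter 1 was the highest array for most of these genes, and the values of neighbouring genes overlapped.

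The others among the 30 brightest were Rps29, Rps24, Rpl37, Rps14, Rplp2, Rpl10a, Rpl41, Rpl39, Rpl3, Rpl27a, Rps21, Rpl23 and Rpl38 of the ribosome, ND4, COX2 and CYTB of the mitochondrial genome, the histones H2ac24, H2ac13 and H2ac7, the globins Hbb-bt and Hba-a1, the peptidyl-prolyl isomerase Ppia, the pseudogenes Ubb-ps and Gm6548, and Igf2. Their mean log2 signals lay between 14.01 and 14.26, a range within which neighbours were not separated. Igf2, the imprinted fetal growth factor, was the one secreted signal among them, at 13.91, 14.13 and 13.99 in litters 1, 2 and 3. Histone, globin and ribosomal protein genes have near-identical copies, and the pseudogene probes may take up RNA of the parent genes, so which copy gave the signal is uncertain.

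**Figure D1:**
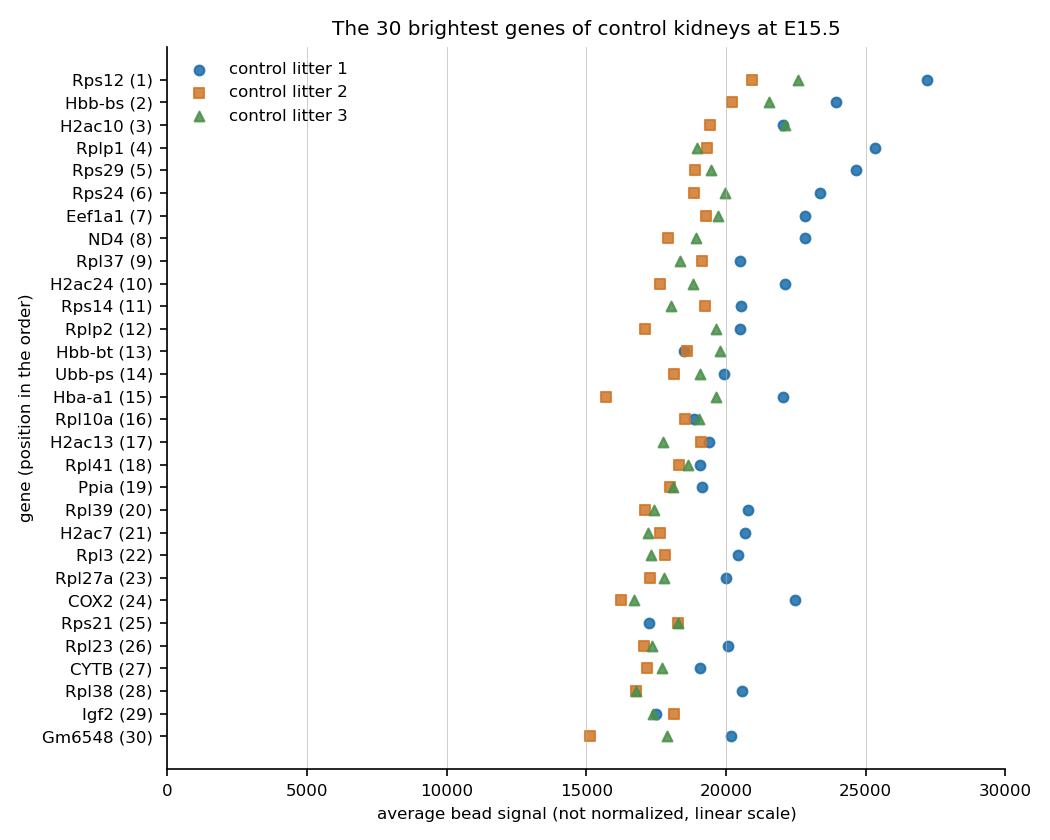
Bead signal, not normalized, of the 30 brightest genes on each of the 3 control arrays, with the position in the order in brackets. Symbols are single arrays. Rps12 reached 27207 in litter 1, and the signals of neighbouring genes overlapped.

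The start sites of the bright genes carried features that could be read from the reference promoters of RefSeq (GRCm38.p6), which give 250 bases before and 50 after each start. Of the genes on the array, 12655 had a single such window. Ribosomal protein and other translation genes are known for transcripts that begin within a run of pyrimidines. A run of at least 6 pyrimidines that begins with C lay within 10 bases of the start in 17 of 38 detected ribosomal protein genes (44.7%), in 34.3% of 67 windows among the 100 brightest genes and in 15.1% of all windows. Without the ribosomal protein genes, the share among the 100 brightest was 28.6% (12 of 42). In the rest of the 1000 brightest genes it was 14.5%, and among genes not detected 14.9%. The 5 brightest ribosomal protein genes with such a run are shown as 15 bases on each side of the start on the coding strand, with the run in capitals from its first C to its end or the end of the bases shown.
Rplp2, chr7:141447636-141447665, plus strand: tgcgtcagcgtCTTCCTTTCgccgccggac
Rpl27a, chr7:109519180-109519209, plus strand: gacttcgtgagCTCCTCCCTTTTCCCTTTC
Rpl38, chr11:114668565-114668594, plus strand: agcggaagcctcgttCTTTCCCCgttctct
Rps2, chr17:24720048-24720077, plus strand: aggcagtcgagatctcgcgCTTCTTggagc
Rpl31, chr1:39367836-39367865, plus strand: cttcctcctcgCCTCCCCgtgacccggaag
The longest run of the 5 belonged to Rpl27a, whose mean log2 signal was 14.06, with 19 letters up to the end of the bases shown, and the shortest, 6 letters, to Rps2 at 13.92.

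Histone promoters differed from those of the ribosome. CCAAT, searched on both strands of the 250 upstream bases, was present in 32 of 41 detected histone genes (78%), in 11 of 38 ribosomal protein genes (28.9%) and in 36.2% of all windows. TATAAA, searched on the coding strand between 40 and 15 bases before the start, was present in 12.2% of the histone genes, 8.96% of the 100 brightest genes, 1.33% of detected genes and 4.51% of those not detected. Below are the 150 bases before the start of the 3 brightest histone genes with CCAAT and of the brightest that also held TATAAA. Capitals mark CCAAT, its reverse complement ATTGG, and TATAAA.
H2ac10, chr13:23533725-23533874, plus strand: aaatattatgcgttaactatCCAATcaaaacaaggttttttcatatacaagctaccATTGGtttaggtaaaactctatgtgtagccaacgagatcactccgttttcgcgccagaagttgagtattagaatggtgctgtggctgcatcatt
H2ac24, chr13:21833476-21833625, minus strand: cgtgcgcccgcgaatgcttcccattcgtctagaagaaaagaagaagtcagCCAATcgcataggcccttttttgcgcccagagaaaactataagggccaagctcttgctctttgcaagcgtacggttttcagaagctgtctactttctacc
H2ac13, chr13:21716262-21716411, plus strand: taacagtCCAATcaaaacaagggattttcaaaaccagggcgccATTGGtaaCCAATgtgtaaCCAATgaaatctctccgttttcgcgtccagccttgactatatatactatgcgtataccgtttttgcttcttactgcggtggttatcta
H2ac22, chr13:21787249-21787398, minus strand: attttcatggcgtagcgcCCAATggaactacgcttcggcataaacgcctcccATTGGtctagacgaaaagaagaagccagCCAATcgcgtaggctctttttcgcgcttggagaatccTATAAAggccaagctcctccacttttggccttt
The number of CCAAT letters on either strand within these stretches was 2, 1, 4 and 3 in that order, beside mean log2 signals of 14.30, 14.15, 14.09 and 13.47.

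Across the whole order, base composition at promoters separated detected from undetected genes more than bright from dim. The median ratio of observed to expected CpG was 0.79 in detected and 0.30 in undetected genes, and it was 0.86 in the 100 brightest genes and 0.76 in those below the median of the order. GGGCGG, the letters of a GC box, was found on either strand upstream of 63% of detected and 29.9% of undetected genes. Olfactory receptor genes, nearly all of them undetected, gave 903 windows, beside 6647 windows of undetected genes. They had a CpG ratio of 0.11, and 0.554% of them held GGGCGG. Their part in the values of the undetected genes was not tested. Among detected kidney compartment genes the CpG ratio was 0.34 and the share with GGGCGG 34.8%, nearer to the undetected than to the detected genes. All of these are matches of letters, with no binding measured.

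Genes of cellular functions common to all cells filled the upper part of the order. The 56 detected ribosomal protein genes of 62 with a probe had a median percentile of 99.3, from Rps12 down to Rps15a at 6.11. Rpl17, Rpl39l, Rpl3l, Rpl6, Rps23 and Rpsa were not detected on all arrays. Translation factors (15 of 16) had a median percentile of 98.9. Eef1a1, the nucleolar protein gene Npm1, the nascent-chain factor gene Naca and Eef1g led them, Eif3h was lowest at 8.43 and Eif3e was not detected.

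Cytoskeletal genes (15 of 15) followed at 98.4, led by Tuba1b (13.82 ± 0.12, SD, n = 3), Tmsb10, Tubb5 and Tmsb4x, with the cofilin gene Cfl1 last at 7.76. Nuclear oxidative phosphorylation subunits (72 of 79) stood at 94.8, led by Atp5g3, Atp5b, Cox6c and Atp5j2, with Cox7a1 lowest at 6.07. Proteasome subunits (31 of 39) stood at 93.0, led by Psma2, Psmb4, Psma5 and Psma4, with Psmd2 lowest at 6.08. Oxidative phosphorylation genes not detected on all arrays were Cox4i2, Cox6a2, Cox7b2, Cox8b, Cox8c, Ndufs1 and Sdha. Glycolytic genes (10 of 11) stood at 92.0, with Ldha at 12.12 ± 0.10, Tpi1 at 11.98, Gapdh at 11.74 ± 0.07 and Pgk1 at 11.62, Pfkp lowest at 5.48 and Hk1 not passing. Mitochondrial ribosomal protein genes (72 of 76) reached 79.9, led by Mrps24 at 11.69, Mrps33 at 11.57, Mrpl13 at 11.55 and Mrpl20 at 11.43, with Mrpl57 lowest at 5.98.

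Genes of DNA replication and cell division stood above the middle of the order. Of 18 cell cycle genes with a probe 17 were detected, at a median percentile of 82.0. The helicase subunit gene Mcm4 had a mean of 11.46 ± 0.04, and the sliding clamp gene Pcna had 11.59, 11.46 and 11.20. Mcm6 (11.29) and Mcm5 (10.75) came next, Mcm3 was lowest at 6.91 and Bub1 was not detected. With the median over detected probes in place of the brightest, Mcm4 stood at percentile 24.0 in place of 96.0, so its place rested on 1 of its probes.

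Histone genes of all classes (46 of 56 detected) had a median of 9.16 and the widest spread of levels of any functional group, from 14.30 for H2ac10 to 5.30 for H1f5. The 8 brightest were H2a genes. Transcripts of these genes mostly lack a poly(A) tail, and the labelling kit primes from oligo(dT), so their signals are not comparable with those of other genes.

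Imprinted growth genes stood almost as high as the cytoskeleton, at a median percentile of 96.9 for 11 of 14 with a probe. Beside Igf2, the hydrolase gene Mest had 13.38, 13.30 and 13.40, the cell cycle inhibitor gene Cdkn1c 12.76, 12.71 and 12.75, and the growth factor receptor adaptor gene Grb10 12.06, 12.30 and 12.15. Each of these 3 genes had an SD of 0.12 or less. Ndn and Dlk1 had 11.74 and 11.73. Phlda2 was lowest at 5.83, and Meg3, Peg10 and Plagl1 were not detected on all arrays.

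**Figure D2:**
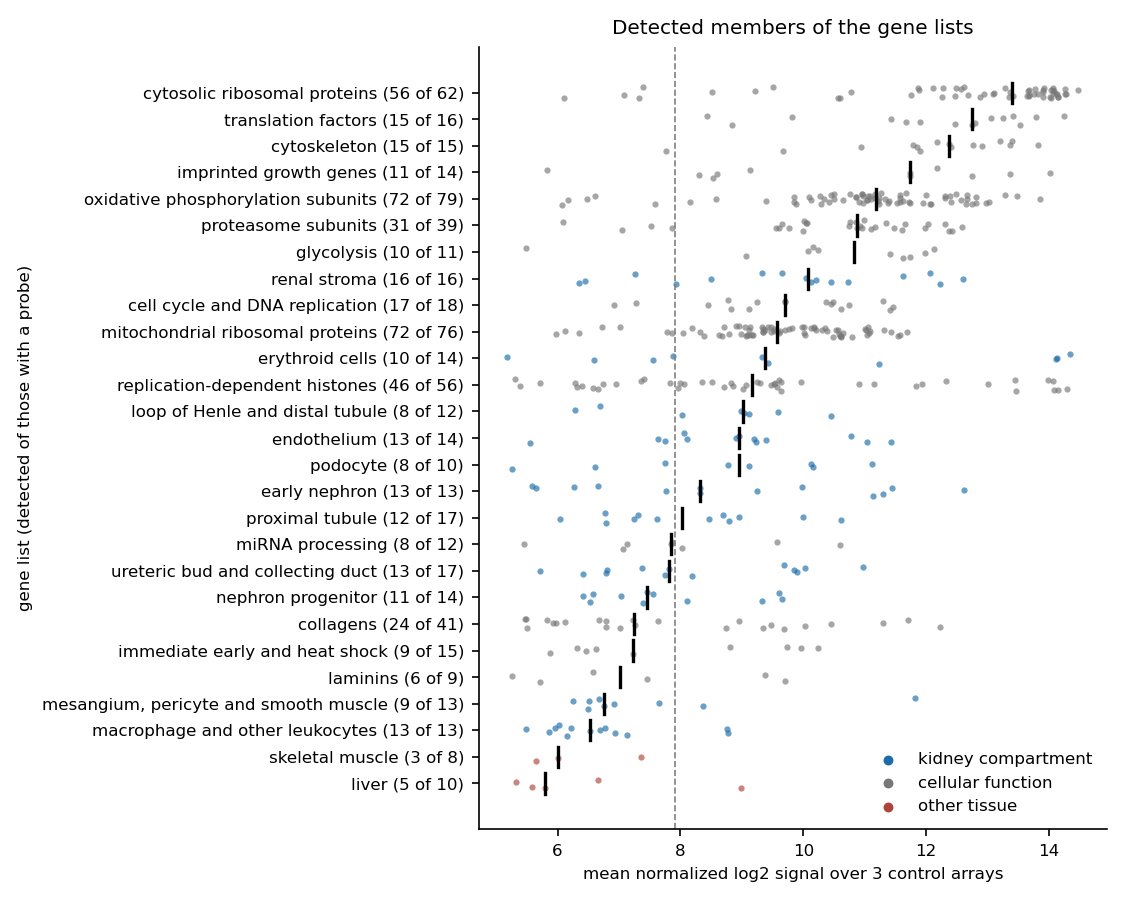
Mean normalized log2 signal over the 3 control arrays of each detected member of the lists, with the list's median as a bar and the median of all 9300 genes, 7.92, as a dashed line. Brackets give detected members of those with a named probe. Protein synthesis lists lie at the right, renal stroma leads the kidney compartments at 10.08, and the 2 lists of other tissues with at least 3 detected genes lie at the left.

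Of the genes in the kidney compartment lists, 125 of 152 with a probe (82.2%) were detected, beside 48.8% of all named genes. Of 53 genes of adrenal gland, gonad, liver, nerve, skeletal muscle and bladder 13 (24.5%) were detected, and of 1371 genes of sensory receptors, skin, lens and defensins 11 (0.802%). Most genes of the kidney compartment lists were thus detected, with the exceptions named for each compartment. These lists include leukocyte and erythroid genes and were chosen with earlier results of these data known, so the share is a description. In whole kidneys, fewer cells of a type and less RNA per cell cannot be told apart.

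The renal stroma list had the highest median signal among the compartment lists, a description of probes that differ between genes. All 16 of its genes with a probe were detected, at a median of 10.08 and a median percentile of 86.5 (76.2 with the median over a gene's detected probes), and 6 of them were among the 1000 brightest genes. Anxa2, which codes for a membrane-binding annexin of cortical stroma, had 12.56, 12.66 and 12.57 in litters 1, 2 and 3. The fibrillar collagen gene Col3a1 had 12.22, 12.14 and 12.29, the homeobox gene Meis2 12.03, 12.12 and 12.05, and the proteoglycan gene Dcn 11.62, 11.43 and 11.82. The detected probes ran from 5.67 to 12.22 for Col3a1 and from 5.37 to 12.07 for Meis2, so each place is that of the brightest probe. With the median over its 3 detected probes Meis2 stood at percentile 97.4 in place of 97.8. The litters of these genes kept no common order, and the SDs were 0.05, 0.07, 0.05 and 0.20.

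Foxd1, the transcription factor that defines the stromal progenitor, had 9.85, 10.11 and 10.17, with bead signals of 1084, 1298 and 1451. Litter 1 was the lowest of the 3, and the mean of 10.05 ± 0.17 placed the gene at percentile 86.1. Fat4, an atypical cadherin through which stroma signals to progenitors, was the dimmest stromal gene at 6.35 ± 0.23.

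Nephron progenitor genes had a median of 7.45 and a median percentile of 40.7 for 11 of 14 genes, none of them among the 1000 brightest. The thyroid hormone-binding protein gene Crym was highest at 10.01, 9.53 and 9.43. Hoxa11, needed with its paralogues for the metanephric mesenchyme, had 9.46, 9.61 and 9.77. Gdnf, the ligand that draws out the ureteric bud, had 9.27, 9.34 and 9.38, with an SD of 0.06. The small membrane protein gene Tmem100 had 8.14, 8.13 and 8.04.

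Six2, the transcription factor that holds progenitors undifferentiated, was the dimmest detected gene of the list, at 6.75, 6.19 and 6.31. Its bead signals were 206.3, 172.8 and 180.5, and litter 1 was higher than the other 2. The array had 1 named probe for Six2. Pax2, Hoxd11 and Rspo1 were not detected on any array. All 11 detected progenitor genes lay below the stromal median, a comparison of different probes.

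The early nephron list marks cells leaving the progenitor state, and all 13 of its genes were detected, at a median of 8.31. Its brightest was the cyclin gene Ccnd1, at 12.47, 12.86 and 12.53, with detected probes that ran from 9.04 to 12.62. The zinc finger gene Osr2 had 11.22, 11.61 and 11.53, the second D-type cyclin gene Ccnd2 had 11.35, 11.31 and 11.21, and Lhx1, required for patterning of the vesicle, had 11.12, 11.26 and 11.01. The Notch ligand gene Dll1 was lowest at 5.58 ± 0.32, and its other ligand in the list, Jag1, was at 9.25 ± 0.09. Wnt4, which drives the mesenchyme to become epithelium, had 8.07, 7.57 and 7.64. Ccnd1 and Ccnd2 are used by many cell types.

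Ureteric bud and collecting duct genes had a median of 7.82, with 13 of 17 detected. Hoxb7, the homeobox gene whose promoter is used to drive transgenes in the bud, led with 10.83, 10.87 and 11.24. The keratin gene Krt8 had 10.38, 9.79 and 9.93, the epithelial cadherin gene Cdh1 a mean of 9.89, and the transcription factor gene Sox9 9.71, 10.01 and 9.82. The Gdnf receptor gene Ret had 7.57, 7.67 and 7.97. Wnt9b, the inducing signal of the bud, was dimmest at 5.71 ± 0.31. Wnt11 passed on 2 arrays, the water channel gene Aqp2 on litter 1 alone, and Calb1 and Emx2 on none.

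**Figure D3:**
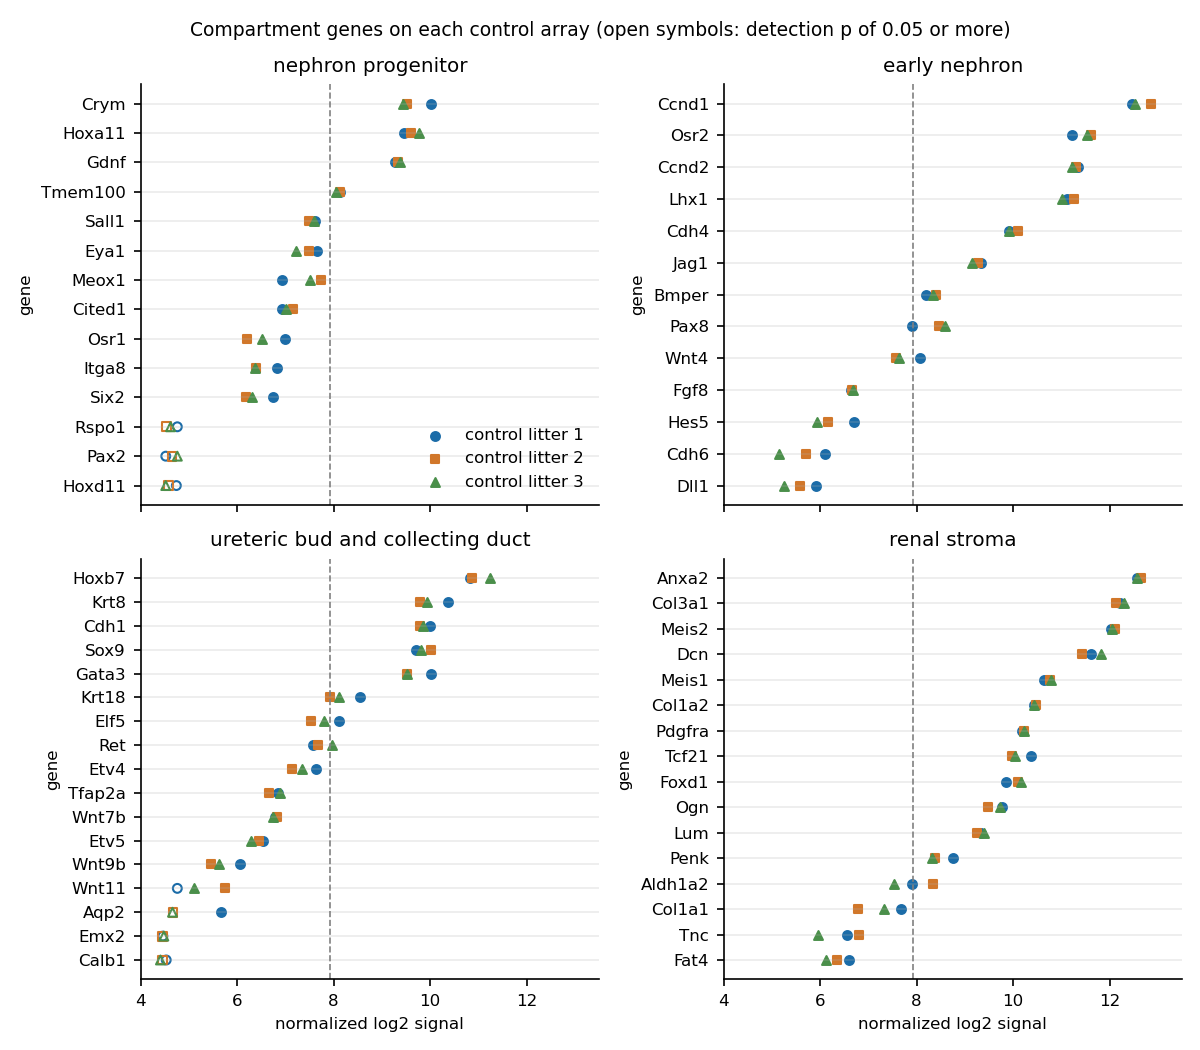
Normalized log2 signal of each gene of 4 compartment lists on each control array, ordered by mean, with open symbols where the detection p was 0.05 or more. The dashed line is the median of all detected genes, 7.92. Of the detected stromal genes 13 of 16 lie right of it, and of the detected nephron progenitor genes 4 of 11.

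Podocyte genes (8 of 10 detected) had a median of 8.95. Foxc2, a forkhead factor of the forming glomerulus, had 10.90, 11.10 and 11.37, and the vascular growth factor gene Vegfa 10.25, 10.11 and 10.11. Tcf21, which the stroma shares, had a mean of 10.12, and the synaptopodin gene Synpo 9.12. Npnt was dimmest at 5.25. The slit diaphragm gene Nphs1 passed on 1 array only and Clic5 on none.

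Tubular genes of the maturing nephron were also detected. In the proximal tubule list (12 of 17, median 8.03) the scaffold gene Pdzk1 led at 11.09, 10.42 and 10.34, ahead of the phosphate transporter gene Slc34a1 at 10.26, 9.83 and 9.89. Aqp1 had a mean of 8.95 and Hnf4a, the transcription factor of the segment, 8.79, while the cubilin gene Cubn was lowest at 6.04. Slc22a8, Fbp1, Miox, Slc5a2 and Kap did not pass on all arrays. In the loop and distal tubule list (8 of 12, median 9.02) the Bmp antagonist gene Sostdc1 had 10.45, Mal 9.58, the loop cotransporter gene Slc12a1 9.11 and the distal cotransporter gene Slc12a3 9.04. Of their probes, 3 of 6 were detected for Slc12a1 and 1 of 5 for Slc12a3, so each place is that of the brightest detected probe. Cldn16 was lowest at 6.29, and Umod, Pou3f3, Irx1 and Tmem72 did not pass on all arrays.

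Endothelial genes (13 of 14) had a median of 8.95, led by Ramp2 (11.21, 11.49 and 11.59), a partner of the adrenomedullin receptor, and by Emcn (11.08, 10.96 and 11.07), a surface sialoprotein. Egfl7 had 10.77 and Plvap 9.39. Tie1 was dimmest at 5.55, and Kdr, a receptor for vascular growth factor, was detected on no array.

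Mesangium and smooth muscle genes (9 of 13) had a low median of 6.76 around 1 bright gene, the smooth muscle actin gene Acta2 at 11.93, 11.65 and 11.88. The 4 detected probes of Acta2 ran from 8.68 to 11.82. Des had 8.36, Mcam 7.65 and Notch3 6.91, and Aoc3 was lowest at 6.25. Tagln, Myh11, Cnn1 and Cspg4 did not pass on all arrays.

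All 13 leukocyte genes were detected, at a median of 6.52, which was the lowest of the compartments. Laptm5 at 8.77, the lysozyme gene Lyz2 at 8.76 and the macrophage surface gene Adgre1 at 7.13 were followed by Fcer1g at 6.93, and Cx3cr1 was lowest at 5.48. The erythroid list (10 of 14) held both extremes. Hbb-bs, Hbb-bt and Hba-a1 were at 14.34, 14.13 and 14.12 and Hbb-b2 at 11.23, while the embryonic globin gene Hbb-bh1 was at 5.18. Epb42, Gata1, Klf1 and Hemgn did not pass on all arrays.

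Of the adjacent and other tissues, no adrenal gene of 11 was detected on all 3 arrays, with means of 4.42 to 5.28. Of 8 gonad and germ cell genes Insl3 alone was detected, at 5.44. In the liver list 5 of 10 were detected. The fetal plasma protein gene Afp was at 9.06, 8.98 and 8.95, Ttr at 6.65, Trf at 5.80, Apoa2 at 5.58 and Fga at 5.33, while albumin, Alb, was detected on none. Elavl4 and Stmn2 of 9 neuronal genes, Actc1, Mylpf and Tnni2 of 8 skeletal muscle genes, and Upk3a and Upk1b of 7 urothelial genes were detected, the highest being Actc1 at 7.36. The part of such tissue in any other signal was not tested.

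Extracellular matrix genes ranged widely in signal. Of 41 collagen genes with a probe 24 were detected, beside 48.8% of all named genes, at a median of 7.24. Col3a1 (12.22), Col18a1 (11.70), Col4a1 (11.30) and Col1a2 (10.45) led them, and Col9a3 was lowest at 5.47. Of the basement membrane chains, Col4a1 had 11.30, Col4a2 9.48, Col4a5 8.74 and Col4a4 5.97. Col4a3 and Col4a6 passed on no array. Among the laminins (6 of 9) Lamc1 had 9.70 ± 0.12, Lamb1 9.38 ± 0.07 and Lama1 7.45 ± 0.29, and the chains Lamb2 and Lama5 of mature basement membrane had 6.57 ± 0.64 and 5.72 ± 0.33. Lamc3 was lowest at 5.26. These chains were measured by different probes, so their order is a description of signals.

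Hox genes, which encode position along the body axis, were detected for 23 of 38 with a probe, beside 48.8% of all named genes. Hoxb7 (10.98 ± 0.22), Hoxd10 (10.60 ± 0.11), Hoxd8 (10.44 ± 0.15) and Hoxb5 (10.18 ± 0.18) were brightest, and Hoxa10 was dimmest at 5.79 ± 0.38. By paralogue group, 9 of 12 genes in groups 4 to 7 were detected, 9 of 13 in groups 8 to 11, and 4 of 7 in groups 1 to 3. In groups 12 and 13, 1 of 6 was detected, Hoxd12 at 6.30. By cluster, the counts were 7 of 10 for Hoxa, 7 of 10 for Hoxb, 3 of 9 for Hoxc and 6 of 9 for Hoxd. Of the group 11 genes, which act together in the metanephros, Hoxa11 was at 9.61, and Hoxc11 and Hoxd11 were not detected.

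**Figure D4:**
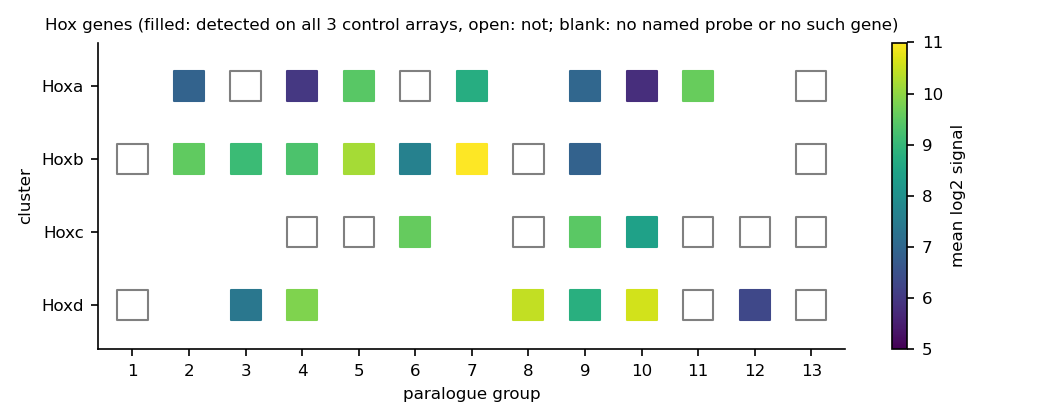
Mean normalized log2 signal of the Hox genes by cluster and paralogue group, over 3 control arrays. Filled squares were detected on all 3 arrays, open squares were not, and blanks mark no named probe or no such gene. The filled squares lie mainly between groups 2 and 11, and 1 of the 6 genes of groups 12 and 13 is filled.

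Of the Hox, Fox, Sox, Pax and Irx transcription factors the 5 brightest were Sox11, Sox12, Foxc2, Hoxb7 and Hoxd10. Sox11, a factor of immature mesenchyme and neurons, had 11.35, 11.58 and 11.48, and Sox12 had 11.03, 11.16 and 11.41. The 2 genes overlapped in their values over litters. Detection held for 48.8% of all named genes. Of 42 Fox genes 17 were detected, with Foxj3 (9.84) and Foxp3 (8.71) next after Foxd1 and Foxp2 lowest at 5.21. Of 19 Sox genes 10 were detected, with Sox9 and Sox4 (9.23) next and Sox8 lowest at 5.30. Pax8 was the one Pax gene of 9 to be detected, at 7.90, 8.46 and 8.58. Its 2 detected probes had means of 5.30 and 8.31. Irx3 (9.28), Irx2 (8.02) and Irx5 (6.49) were detected of 6 Irx genes.

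Gene families named for signalling ligands and receptors were partly detected, beside 48.8% of all named genes. Their members were taken by gene symbol, so not every one need act as a ligand or receptor. Of 19 Wnt genes 6 were detected, at a median of 6.25, led by Wnt5a (8.36) and Wnt4 (7.76) before Wnt7b (6.79) and Wnt9b (5.71), with Wnt2 last at 5.28. Of 10 Frizzled receptor genes 8 were detected, at a median of 7.35, led by Fzd1 (10.09), Fzd7 (9.12), Fzd6 (8.42) and Fzd2 (7.73), with Fzd4 last at 5.22 and Fzd8 and Fzd9 not passing. Of 22 Fgf genes 6 were detected, among them Fgf13 (7.52), Fgf8 (6.65), Fgf10 (6.65) and Fgf1 (5.91), and Fgf22 was lowest at 5.82. Of 11 Bmp genes 4 were detected, Bmp1 (9.43), Bmp4 (8.76), Bmp7 (7.33), a survival factor for progenitors, and Bmp3 (6.73). Signals of these genes come from different probes, so their levels are not compared.

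Junction and transport families were partly detected. Of 20 claudins 16 were detected, led by Cldn11 (11.65), Cldn6 (9.86), the endothelial Cldn5 (9.63) and Cldn10 (9.46), with Cldn23 last at 5.80 and Cldn13, Cldn14, Cldn17 and Cldn18 not passing. Aquaporins were detected for 4 of 11, Aqp1 (8.95), Aqp3 (7.08), Aqp11 (6.74) and Aqp4 (6.03). Of 322 solute carriers 141 (43.8%) were detected, a share near the 48.8% of all genes. The mitochondrial carriers Slc25a5 (12.94) and Slc25a3 (12.42) led them, ahead of Slc38a2 (11.45) and Slc6a6 (11.32), and Slc9a2 was lowest at 5.18. Keratins were detected for 6 of 49, led by Krt8 (10.03), Krt10 (9.52), Krt23 (8.65) and Krt18 (8.19), with Krt19 lowest at 5.98.

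Families of other organs were largely not detected. Of 1071 olfactory receptor genes 7 (0.654%) were detected, at 5.10 to 6.54, and Olfr802 was highest. No vomeronasal receptor of 168, taste receptor of 35 or keratin-associated protein gene of 41 was detected. Defb25 (7.72) and Defb29 (5.27) of 41 beta-defensins and Cryab (6.18) and Cryba4 (5.19) of 15 crystallins were detected.

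Dicer1, which the study deleted in the stroma of the mutants, and other genes of miRNA processing were measured here without that deletion. The enzyme coded by Dicer1 cuts precursors into mature miRNAs, and the gene had 7.59, 7.98 and 8.0, with bead signals of 298.7, 363.9 and 386.8. Litter 1 was lowest, and the mean of 7.86 ± 0.23 lay at percentile 48.9, near the middle of the order. Of the 3 probes for Dicer1, 1 was detected, and this place is that of the detected probe. Of 12 genes of the pathway 8 were detected, beside 48.8% of all named genes. Prkra, a partner of Dicer, was brightest at 10.59 ± 0.02, then Drosha, which makes the first cut in the nucleus, at 9.57 ± 0.12, and the Argonaute gene Ago2 at 8.02 ± 0.15. Ago4 was dimmest at 5.46, Ago1 and Ago3 were detected on no array, and Lin28a and Lin28b on 2 each.

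Genes that respond to handling of tissue were partly detected, 9 of 15 at a median of 7.22, beside 48.8% of all named genes. The chaperone gene Dnajb1 had 10.24, 10.21 and 10.28. Egr1 had 9.54, 9.90 and 10.44, with litter 3 highest, Klf6 had a mean of 9.73 and Dusp1 of 8.80. Fos was lowest at 5.87 ± 0.29, and Atf3, Fosb, Junb, Ier2, Btg2 and Hspa1a did not pass on all arrays.

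Between litters, most bright genes were steady. Of 4474 genes with a mean of at least 8, 3814 had an SD under 0.25, and 25 spanned over 1 log2. The array of litter 1 was the one farthest from the other 2 arrays in 2352 of them, that of litter 2 in 1157 and that of litter 3 in 965. The 15 genes of largest SD included genes of blood cells. The embryonic globin gene Hbb-y had 8.14, 10.49 and 9.35 (SD 1.17), with bead signals of 393.8, 1665 and 855.7, so that litter 2 was highest and litter 1 lowest. Lyz2 had 9.54, 8.69 and 8.05, litter 1 being highest.

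The other members of this group fell into no single order of litters. Erdr1 had 12.35, 11.63 and 10.17 and the secreted Wnt antagonist gene Sfrp1 9.66, 8.21 and 8.86, both highest in litter 1. Gm2897, at 8.97, 8.92 and 7.47, and Gm5796, at 9.72, 10.07 and 8.84, were lowest in litter 3. Supt16, of the histone chaperone FACT, had 9.45, 9.49 and 10.70, with litter 3 highest. Nat8f1 was highest in litter 1, at 9.09, 7.89 and 8.01, whereas Tagap, Tm7sf3, Tesk1, Mapk8ip1 and Ctdspl were lowest there. Cenpq and Ide were lowest in litter 2.

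Proximal tubule genes moved together between litters. The median departure from the mean of the 3 arrays was 0.42 log2 in litter 1, -0.16 in litter 2 and -0.23 in litter 3. Litter 1 was highest for 11 of 12 detected genes of the list, Hnf4a being the exception, beside 34.3% of all detected genes. Ass1 had 8.24, 6.60 and 6.87, Slc22a6 had 7.33, 6.68 and 6.35, and Spp2 had 8.16, 7.36 and 7.30. The loop and distal tubule list departed by 0.20 in litter 1, with litter 1 highest in 6 of 8 genes. Aquaporins departed by 0.33 and Wnt ligands also by 0.33, on 4 and 6 genes.

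Beside 34.3% of all detected genes, litter 1 was also highest for 44 of 72 oxidative phosphorylation genes (61.1%) and 10 of 15 translation factors. The same held for 8 of 13 ureteric bud genes, 7 of 11 nephron progenitor genes and 5 of 6 keratins. The median departures of these lists in litter 1 were 0.06, 0.05, 0.12, 0.06 and 0.18. Other lists had lower shares, with litter 1 highest for 2 of 11 imprinted growth genes, 2 of 10 Sox genes and 2 of 9 genes that respond to handling. The median departures of stroma, cytosolic ribosomal protein and erythroid genes were at most 0.02 in any litter. Single stromal genes still differed, such as Col1a1 (7.67, 6.78 and 7.32) and Aldh1a2 (7.90, 8.33 and 7.54). Of the 16 stromal genes, 5 were highest in litter 1, 6 in litter 2 and 5 in litter 3. Within the erythroid list the median also hid opposite shifts. The globin genes Hbb-y, Hba-x (5.96, 6.95 and 6.89) and Hbb-bh1 (4.94, 5.45 and 5.17) were all lowest in litter 1 and highest in litter 2. Hbb-bh1 lay near the detection threshold. By contrast, Hbb-b2 (11.92, 10.99 and 10.77) and Alas2 (8.03, 7.3 and 7.36) were highest in litter 1. By count, litter 1 was highest for 4 of the 10 detected erythroid genes and litter 2 for 5. Endothelial genes departed by a median of -0.14, 0.03 and 0.11 in litters 1, 2 and 3. Litter 1 also had the most probes detected (20224), and the part of that in these values was not tested.

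**Figure D5:**
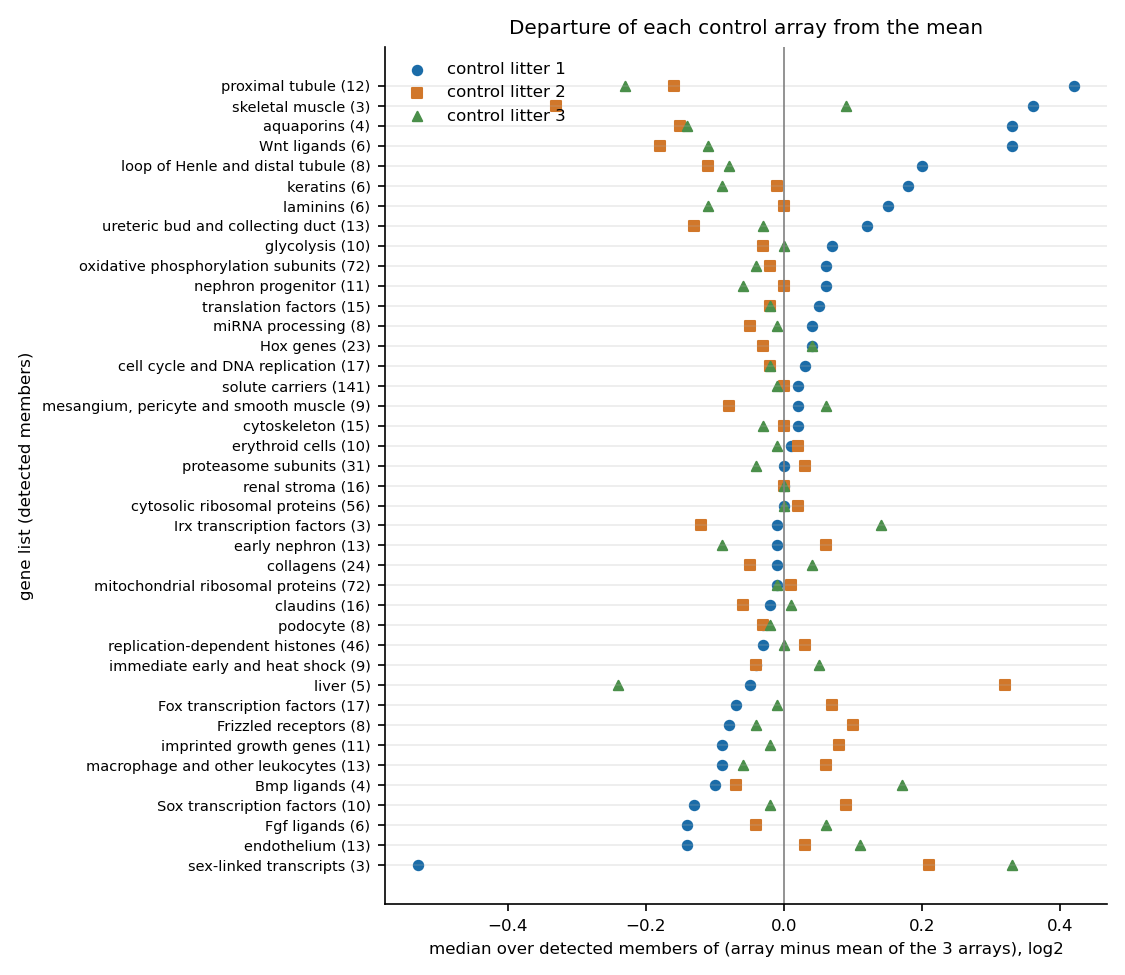
Median, over the detected members of each list, of the log2 signal on 1 array minus the mean of the 3 control arrays. Each symbol is 1 array and brackets give the number of genes. Proximal tubule genes stand at 0.42 in litter 1, -0.16 in litter 2 and -0.23 in litter 3, and renal stroma at 0 in each.

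Transcripts of the sex chromosomes differed between the pools as well. Xist, the RNA that silences an X chromosome in females, had its brightest probe at 9.64, 4.57 and 4.61, and each of its 4 probes was detected in litter 1 alone. The Y-linked gene Eif2s3y had 9.20, 9.94 and 10.06, Kdm5d had 6.86, 7.91 and 7.96, and Uty had 5.39, 5.78 and 6.0. All 3 Y-linked genes were detected in every litter and were lowest in litter 1. Litter 1 was thus the one pool with both Xist and Y-linked transcripts detected. Each array pooled 2 embryos, and the sexes of the embryos are not given in the sources used here. The part of the embryos' sex in the other differences of litter 1 was not tested.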

How the data were processed

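The authors deposited raw intensity values (mean bead signals, neither background-subtracted nor normalized), each with a detection p-value set against negative control beads. They also deposited processed log2 values, made with lumi and limma per the paper, with a transformation that the paper does not detail. Total RNA was purified on columns with DNase and labelled as biotin cRNA.

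Of 45281 entries, those lacking an identifier (2) or repeating one (2) were dropped. Gene symbols came from the annotation of the platform, which gave 1 symbol for 34881 probes, more than 1 for 18 (left unnamed) and none for 10378. Of the detected probes 2042 had no single symbol. The neqc function of limma 3.58.1 (R 4.3.3) was run over all 6 arrays, which infers background from the detection p-values, adds 16, applies quantile normalization and takes log2. The order, lists and promoter counts were made in Python 3.11.15 with pandas, and the ordering was run on simulated data of known levels. The simulated probes did not differ in hybridization, so that run covers the computation alone.

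Genes named are the 30 brightest, per list the 4 brightest and the dimmest detected with those not detected (olfactory receptors, and undetected members of the larger families, other tissues and some functional lists, are given by count), the 15 of largest SD at a mean of 8 or more, the 5 brightest of 5 transcription factor families, Dicer1, Foxd1 and sex-linked transcripts. Others named for their role, such as Ret, Jag1, Wnt4, Bmp7 and Egr1, or as contrasts were chosen after their values were seen. The members and lists were chosen with earlier results of these data known. Alternatives changed the arrays normalized together, the values, the background correction, the detection rule, the probe of a gene and the arrays kept. Precision is limited by the number of arrays.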

Additional observations from a re-analysis of the deposited data

How the results depend on the processing

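Counts of detected probes and genes, of ribosomal protein genes among the 100 brightest, and of genes shared with those 100 stayed within 1.5 times the reported values under every alternative that gives such a count (with no detection filter all probes are kept, so there is none of detected ones). Without 1 control array, 15924 to 17457 probes and 9416 to 10020 genes were detected, and 98 to 99 of the 100 brightest genes were shared. With the median over a gene's detected probes, 74 were shared. The median SD over litters, 0.173, became 0.085 with the deposited log2 values and 0.114 with no background correction, and the cause was not tested. It was 0.107 to 0.164 without 1 control array, lowest without litter 1. These are SDs over 2 arrays, so they are not directly comparable with the SD over 3. The pyrimidine run was found in 34.3% of promoters of the 100 brightest genes (95% Wilson interval 24.1 to 46.3%) and in 23.2% for the 200 brightest. The larger set contains the smaller one, so the interval is no test of the difference between them. Of 25 list medians, none moved past its spread under the 3 other normalizations (shifts of at most 0.9 percentile points). With no detection filter 23 moved (-12.5 to 39.7 points), with the median over detected probes 17 (-16.3 to 7.2), with detection on 2 of 3 arrays 13 (-10.5 to 7.5) and without 1 array 4 to 10 (-12.0 to 7.9). A detection p under 0.01 moved 17 (-8.7 to 29.9), among them the collagen median from percentile 36.5 to 66.4, since dim members dropped out. Places of single genes moved too. Of 231 named genes, at most 2 moved under the 3 other normalizations. With the median over detected probes 129 moved (-72.0 to 7.7 points), and with no detection filter 215 (0.0 to 51.2). Proximal tubule genes were highest in litter 1 for 11 of 12 genes under all 3 other normalizations. No paired analysis was possible because a single group was described and no test was made.

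Levels of different genes come from different probes, so only bands are comparable, and low signals lie near the negative control beads. With 3 pools of 2 embryos, differences between litters cannot be told apart from differences between arrays.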
